A study of Danio rerio with 48 samples.

Results

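Potassium perfluorohexane-1-sulfonate (PFHxS) is a persistent perfluorinated sulfonate, and 12 libraries tested what 14 µM of it does to messenger RNA in the head of zebrafish larvae at 5 days post fertilization (dpf). The 6 libraries of 14 µM and the 6 of vehicle were chosen by their labels, out of 48 libraries that also cover 7.87 and 25.1 µM and an age of 4 dpf. Both groups were mixed wildtype larvae in 0.4% DMSO, dosed from 0 dpf in individual wells with medium renewed daily, and differed in the labels by the sulfonate alone. Each library is a pool of 15 heads taken in front of the swim bladder, so differences between single larvae cannot be seen, and organs near the cut may be included. Libraries are called here by the letter in their titles: A, D, E, G, H and I at 14 µM, and C, E, F, G, H and I in DMSO. Whether the pools stem from different clutches is not stated, and p-values therefore reflect how pools vary, which may be partly technical.

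Sulfonates of this class bind to proteins and accumulate in liver and blood, and in vertebrates they are known for activating receptors of fatty acid metabolism, such as the peroxisome proliferator-activated receptors (PPARs). The larval head at this age is mostly brain, eye, jaw cartilage, muscle and skin. The eye has just become functional: crystallins fill the lens, opsins start the light response in rods and cones, and the retinal pigment epithelium renews the light-absorbing retinal.

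The 12 libraries held 18.4 to 28.0 M counts (1 M is 1000000), with a median of 23.7 M, and no pair of them agreed within sampling noise. Most head tissues were represented by their markers, though pituitary prl and hair-cell tmc2b had medians under 1 CPM in both groups. Cartilage col2a1a had a median of 16240 CPM (counts scaled to a library total of 1000000) at 14 µM and 14770 in DMSO, rod rho 6796 and 6802, skin krt4 7774 and 6226, and neuronal elavl3 166 and 234. Trunk organs were present too: the liver transport protein gene tfa had medians of 586 and 622 CPM, and the pancreatic protease gene ctrb1 1029 and 923. Libraries A and D of 14 µM stood apart from the other 10 on the first principal component, which held 33.6% of the variance over 14335 genes, with scores of -59.0 and -48.05 against -12.1 to 32.9. Pancreatic enzyme genes led the opposite end of that axis. The median SD of log2 CPM was 0.35 at 14 µM and 0.26 in DMSO. No DMSO library of 5 dpf has the letter A or D, so letter and exposure cannot be told apart there. Many results, though not all, are given with and without both. The table's last 16 library columns may be another sequencing pool, which the labels do not say. Numbers at the end of the column titles repeat within the first 32 columns but not within the last 16. The first 32 may thus hold several pools, and differences within them need not hold a pool constant. G and H of 14 µM and E of DMSO stand in the last 16.

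No gene passed the test of 14 µM against DMSO. In edgeR's quasi-likelihood test 0 of 20723 genes had an adjusted p under 0.05, and 151 (0.729%) had an unadjusted p under 0.05, 123 of them higher at 14 µM (0.594% of all genes) and 28 lower (0.135%). If no gene differed, a share of about 0.05 of the tests would be expected below that threshold. The 151 genes are fewer than that. DESeq2 called 0 as well (246 genes at an unadjusted p under 0.05), and so did limma with the deposited quantile values (188). Fitted on the 12 libraries alone, edgeR gave 488 such genes (2.5% of those tested, 1.65% on the higher side), and on the 24 libraries of 5 dpf 366 (1.79%). Leaving out G of 14 µM gave 292, leaving out C of DMSO 229, and leaving out both A and D of 14 µM 151. Differences were small. Among 14335 genes with an average log2 CPM of at least 1, 148 had a fitted difference beyond 1.5-fold on the higher side and 28 on the lower side, and beyond 2-fold there were 10 and 2. The median SE of the log2 fold change was 0.25 in these genes. It rests on a spread shared by all 48 libraries, so it does not measure what these 6 against 6 pools can show. The median SD of log2 CPM reached 0.59 in the group of 7.87 µM at 4 dpf, against 0.35 and 0.26 in the groups compared. For cyp2k18, cyp1a and fabp10a the SE was 0.61, 0.51 and 0.73 in this fit, and 0.47, 0.32 and 0.47 with the 12 libraries alone. Over all genes the median log2 fold change was 0.02 and 53.7% were positive. Counts of genes "at p under 0.05" below use the unadjusted p of the 48-library fit, and the adjusted p against DMSO of every gene named is 1. Fits of the 12 libraries alone gave other list counts. There 10 lens, 4 phototransduction, 4 visual cycle, 9 oxidative phosphorylation and 7 globin and erythroid genes were higher (1.65% of all genes), with 0 lower in these lists. In the liver list 5 were lower (0.849% of all genes) and 1 higher, and in exocrine pancreas 0 and 0.

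**Figure D1:**
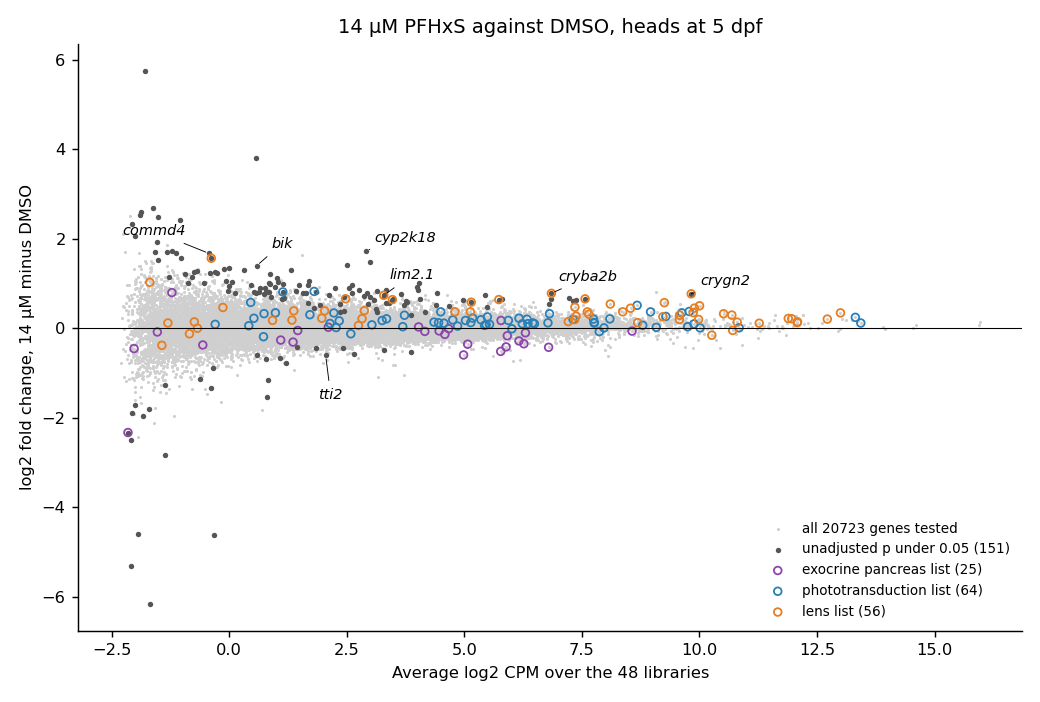
Log2 fold change of 14 µM over DMSO at 5 dpf (y axis) against the average log2 CPM over all 48 libraries (x axis), with each point a gene. Dark points are the 151 genes with an unadjusted p under 0.05, and circles mark the lens, phototransduction and exocrine pancreas lists. The lens circles lie mostly above 0 (51 of 56), and no gene passed after adjustment.

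With all 12 libraries, lens genes were the list with the most members at small p values, which did not hold without A and D of 14 µM. Of 56 lens genes tested out of 72 listed, 51 were on the higher side at a median log2 fold change of 0.30, against 53.7% positive and a median of 0.02 over all genes. At an unadjusted p under 0.05, 8 were higher and 0 lower (14.3% of the list, against 0.594% of all genes on the higher side). The count was 4 without library A of 14 µM, 5 without library E or library H of DMSO, and 1 without both A and D of 14 µM, where the xenobiotic metabolism and Nrf2 lists had 4 each. Without A and D, 49 of 56 lens genes were positive (median 0.23), and without E of 14 µM alone the median was 0.16. The mean log2 CPM of the list overlapped between groups, with 4.91 to 6.07 at 14 µM and 4.96 to 5.74 in DMSO. E and D lay above all DMSO libraries and G below all of them. The difference in list means was 0.53 in the first 32 columns and -0.13 in the last 16, where G stands. In bulk heads a larger share of lens tissue and more RNA per lens cell cannot be told apart.

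The lim2 genes encode the lens intrinsic membrane protein, which in mammals sits in the membranes of fiber cells. Of 5 zebrafish genes of that name tested, 4 had a p under 0.05. For lim2.1 (chromosome 10, 29896275 to 29903166, GRCz11) the CPM at 14 µM was 7.39 at the lowest, 9.80 at the median and 12.2 at the highest. The same values in DMSO were 4.00, 5.83 and 7.84. Libraries E, H, A and D of 14 µM lay above every DMSO library, and G and I lay below DMSO library C. The means were 9.51 ± 1.80 and 5.71 ± 1.46 CPM (SD, n = 6), a log2 fold change of 0.74 ± 0.25 (SE; unadjusted p 0.00482 and adjusted p = 1 in edgeR's test). It was 0.71 ± 0.28 without A and D, where lim2.1 was the 1 lens gene with an unadjusted p under 0.05.

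For lim2.4 (chromosome 19, 10537443 to 10554353) the CPM ran from 39.1 through a median of 43.1 to 54.2 at 14 µM, and from 21.8 through 30.4 to 36.0 in DMSO. All 6 exposed libraries lay above all 6 DMSO libraries, a separation that 17 genes showed in this direction (0.082% of those tested) and 9 in the other (0.0434%). The log2 fold change was 0.58 ± 0.26, and 0.47 ± 0.29 without A and D, where its unadjusted p was over 0.05. The paralogs lim2.5 and lim2.3 had log2 fold changes of 0.64 ± 0.26 and 0.64 ± 0.27, and lim2.2, at 0.44 CPM in both groups, had a log2 fold change of 0.00. Without A and D, lim2.5 had 0.54 ± 0.29 and lim2.3 0.58 ± 0.30, both with an unadjusted p over 0.05.

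Crystallins are the soluble proteins that give the lens its refractive index. All 12 beta crystallin genes tested had positive log2 fold changes, from 0.14 to 0.78, and 2 had a p under 0.05. The CPM of cryba2b (chromosome 9, 11554089 to 11560433) had a lowest value of 59.8, a median of 116 and a highest value of 171 at 14 µM, and 52.5, 67.3 and 86.1 in DMSO. Libraries E, D, A and H lay above all DMSO libraries, and I and G lay among them. The log2 fold change was 0.78 ± 0.30, with 0.95 as the difference in mean log2 CPM within the first 32 columns (4 exposed and 5 DMSO libraries) and 0.23 within the last 16. Its paralog cryba2a had a log2 fold change of 0.66 ± 0.32, and cryba4, with means of 1022 and 722 CPM, had 0.50 ± 0.32. Without A and D, cryba2b had 0.63 ± 0.33 and cryba2a 0.32 ± 0.35, both with an unadjusted p over 0.05.

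Gamma crystallins come in an N class and in the M class of fish. For crygn2 (chromosome 24, 41305391 to 41312460) the CPM ran from 438 through a median of 1011 to 1872 at 14 µM and from 368 through 619 to 986 in DMSO. Library A held the highest value and G the lowest of the exposed group, and the groups overlapped through G and I. Its log2 fold change of 0.77 ± 0.33 became 0.46 ± 0.35 without A and D. Of 27 gamma M crystallin genes 23 were positive, with a median of 0.20, and crygm5 alone had a p under 0.05 (1.56 ± 0.73, with means of 1.19 and 0.398 CPM). The crygm5 value was 1.25 ± 0.80 without A and D, with an unadjusted p over 0.05. The alpha crystallin cryaa, a chaperone, had 138 ± 26.5 and 121 ± 20.8 CPM, a log2 fold change of 0.19 ± 0.17. The 8 other lens genes, among them the water channel genes mipa (0.47) and mipb (0.26) and the lens regulator genes foxe3 (0.39) and hsf4 (0.39), were all positive, and none had a p under 0.05. Without A and D, foxe3 had 0.205 ± 0.30. Crystallin and lim2 genes have near-identical copies, and the counting of reads shared between them is not given in the sources used here, so values of single members are uncertain.

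**Figure D2:**
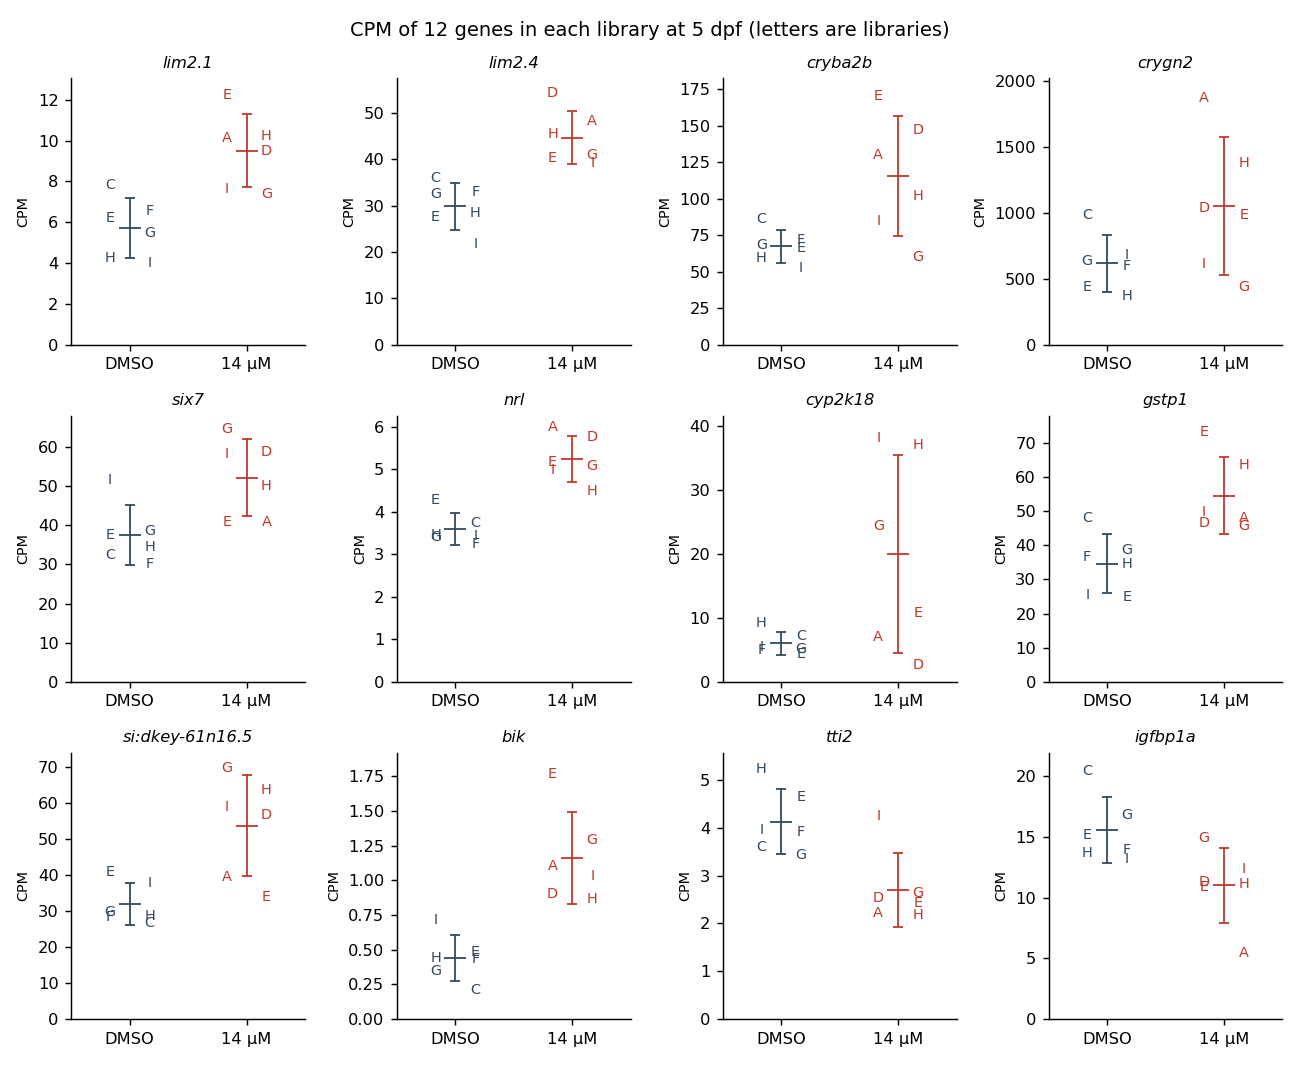
CPM of 12 genes (y axes, from 0) in each library of DMSO and 14 µM at 5 dpf; letters are libraries, bars the mean ± SD of 6. The lim2.4, nrl and bik values do not overlap between groups, and A and D of 14 µM hold the lowest cyp2k18 values of the exposed group.

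The rest of the eye was described by its light response, its retinal cycle and its transcription factors. Of 64 phototransduction genes 60 were positive, the median being 0.13, and 1 had a p under 0.05. Without A and D these became 35 of 64 and a median of 0.01. The list means per library were highest in D and A of 14 µM, 5.82 and 5.81, and ran from 5.30 to 5.50 in DMSO. All 8 opsin genes tested, the pineal exorh included, were positive, with a median of 0.23 and a smallest p of 0.162. Green-cone opn1mw1 had 288 ± 80.3 and 202 ± 53.0 CPM (SD, n = 6), and ultraviolet-cone opn1sw1 9956 ± 2048 and 8417 ± 895. Their log2 fold changes were 0.51 and 0.24 with all libraries, and 0.36 and 0.09 without A and D. Rod rho, at 6896 ± 1383 and 6366 ± 1187 CPM, had a log2 fold change of 0.12 ± 0.27, which was -0.06 without A and D.

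Downstream of the opsins, guca1b encodes a calcium-sensing activator of retinal guanylate cyclase. Its CPM ran from 2.28 through a median of 3.49 to 4.24 at 14 µM and from 0.867 through 1.74 to 2.87 in DMSO. Libraries A, H, D and I lay above all DMSO libraries, and the log2 fold change was 0.81 ± 0.34. The gene of the inhibitory gamma subunit of rod phosphodiesterase, pde6ga, had 0.82 ± 0.41, with 5.39 ± 2.52 and 3.05 ± 0.806 CPM.

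The visual cycle list, which holds the enzymes and carriers that rebuild 11-cis-retinal, had the highest median of the 47 lists, 0.31, with 22 of 29 genes positive and 0 at a p under 0.05. With the 12 libraries alone 4 were higher at that threshold and 0 lower. Its median was 0.16 without A and D, with 20 of 29 positive. The isomerase gene rpe65a had 338, 698 and 1103 CPM at the lowest, median and highest exposed library, and 281, 487 and 627 in DMSO. A, D and I lay above every DMSO library, and E, G and H lay among them. Its log2 fold change was 0.58 ± 0.31 and 0.20 ± 0.34 without A and D. The retinoid carrier gene rlbp1a (0.39 ± 0.26) and the retinol uptake receptor gene stra6 (0.47 ± 0.30) lay on the same side with p over 0.05. Genes of melanophores, pigment cells whose products overlap with those of the pigment epithelium, had 16 of 23 positive, a median of 0.23 and 0 at a p under 0.05. Without A and D these were 17 of 23 and 0.15. The list of the other pigment cells, iridophores and xanthophores, had 23 of 32 positive and a median of 0.09.

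Transcription factors of photoreceptors went both ways, with 14 of 33 positive and a median of -0.02, and 2 had a p under 0.05, both on the higher side. The homeobox gene six7 (chromosome 7, 7401692 to 7420302) is required in zebrafish for the opsins of green- and blue-sensitive cones. The CPM was 40.8 at the lowest, 54.1 at the median and 64.6 at the highest at 14 µM, and 30.1, 35.9 and 51.6 in DMSO. Libraries G, D and I lay above the DMSO range, and H, E and A lay below DMSO library I. The means of 52.2 ± 9.95 and 37.4 ± 7.63 (SD, n = 6) gave a log2 fold change of 0.48 ± 0.16 (unadjusted p 0.00522 and adjusted p = 1 in edgeR's test), and it was 0.51 ± 0.18 without A and D. The rod determinant nrl (chromosome 20, 661037 to 673580) ran from 4.49 through 5.12 to 5.99 CPM at 14 µM and from 3.24 through 3.44 to 4.27 in DMSO. Its groups did not overlap. The log2 fold change was 0.55 ± 0.26, and 0.46 ± 0.29 without A and D, where its unadjusted p was over 0.05.

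**Figure D3:**
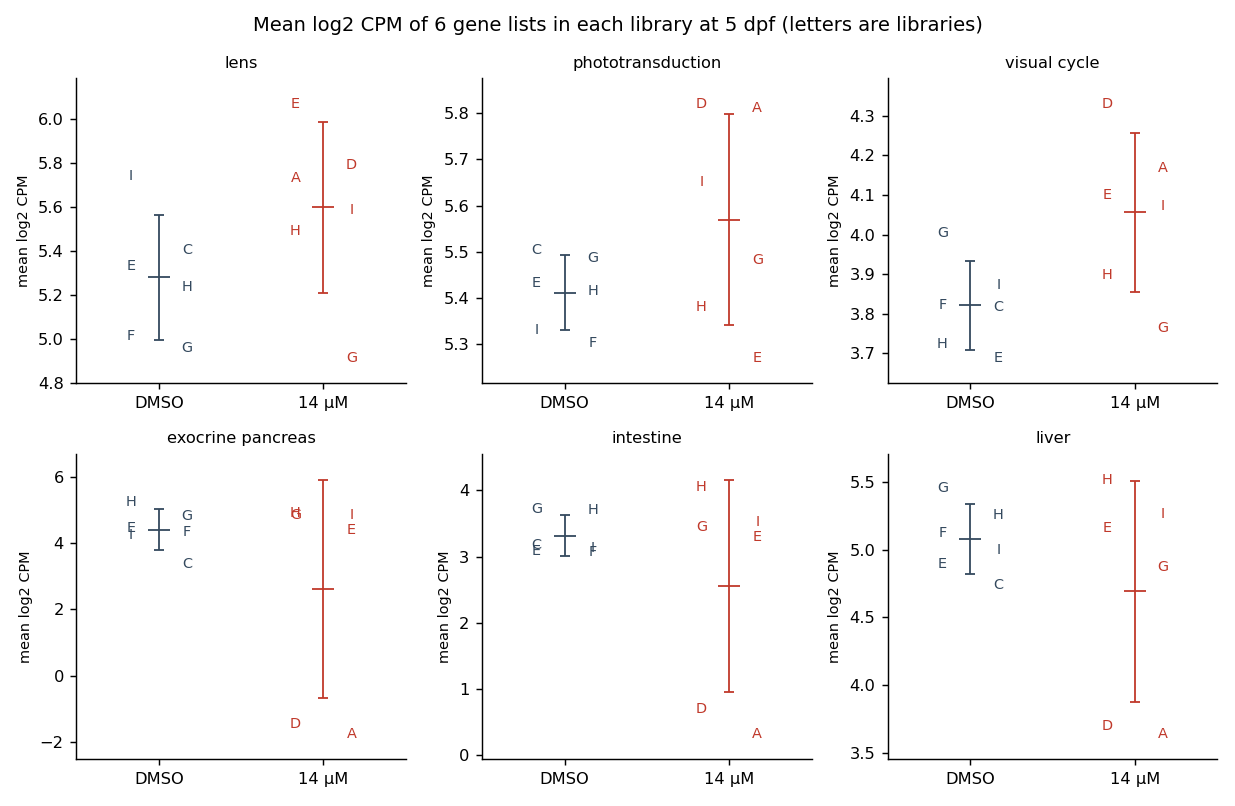
Mean log2 CPM (y axes, not from 0) of 6 gene lists in each library at 5 dpf; letters are libraries, bars the mean ± SD of 6. A and D of 14 µM are lowest for pancreas, intestine and liver and lie above the exposed mean for the 3 eye lists.

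Digestive organs separated libraries within the exposed group. The mean log2 CPM of 25 exocrine pancreas genes was -1.75 in A and -1.48 in D of 14 µM, and 4.39 to 4.93 in the other 4 exposed libraries. In DMSO it ran from 3.38 to 5.25. For the trypsin gene prss1 the lowest exposed library had 0.645 CPM, and DMSO libraries 60.6 to 197. The group means were 2.63 ± 3.30 and 4.41 ± 0.63 (SD, n = 6). The difference was -2.90 in the first 32 columns, where A and D stand, and 0.44 in the last 16. Fitted log2 fold changes had a median of -0.17 with 4 of 25 positive, and 0.30 with 22 of 25 without A and D. Of 64 liver genes 13 were positive (median -0.24), against 48 of 64 and 0.14 without A and D. Intestine had 12 of 46 and -0.18, against 43 of 46 and 0.26. With all libraries, 1 pancreas gene and 1 liver gene were lower at a p under 0.05 (0.135% of all genes). Without A and D there were 0 in either list. For liver the list mean was 3.64 in A and 3.70 in D, 4.87 to 5.52 in the other exposed libraries, and 4.74 to 5.46 in DMSO. The share that this tissue content has in the eye results was not tested. The values of the eye lists with and without A and D are those given above.

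Among detoxification genes, cyp2k18 and 2 glutathione S-transferase genes had a p under 0.05. The cytochrome P450 gene cyp2k18 (chromosome 3, 12710350 to 12715433), of a subfamily found in fish, had 2.64 CPM at the lowest, 17.6 at the median and 38.1 at the highest exposed library, and 4.41, 5.24 and 9.13 in DMSO. Libraries I, H, G and E lay above all DMSO libraries, A among them, and D below them. The means were 20.0 ± 15.4 and 6.02 ± 1.80 (SD, n = 6), a ratio of 3.32 that ran from 2.72 to 3.90 as single libraries were left out. The log2 fold change was 1.73 ± 0.61 (unadjusted p 0.00669 and adjusted p = 1 in edgeR's test), 2.19 ± 0.62 without A and D, 1.21 ± 0.72 in the first 32 columns alone and 1.35 ± 0.86 with limma, and its unadjusted p was over 0.05 in both of the last. The difference in mean log2 CPM was 0.60 within the first 32 columns and 2.74 within the last 16. In D and A the liver list was also low, and the part of liver content in the spread of cyp2k18 was not tested.

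Glutathione S-transferases of the pi class, which conjugate electrophiles and are targets of the stress regulator Nrf2 in zebrafish, followed. For gstp1 (chromosome 14, 3507326 to 3514056) the CPM ran from 45.6 through 49.0 to 73.2 at 14 µM and from 24.96 through 35.6 to 47.9 in DMSO. Only D and G of the exposed libraries lay below the highest DMSO library, C, and the log2 fold change was 0.65 ± 0.29. The neighbouring gstp2, a paralog, had 16.2 ± 8.69 and 8.999 ± 3.73 CPM, a log2 fold change of 0.85 ± 0.35. It was 0.52 without library H of 14 µM and 0.28 ± 0.38 in the first 32 columns alone. The gclm gene, for the modifier subunit of the enzyme that starts glutathione synthesis, had 1.99 ± 0.45 and 1.16 ± 0.19 CPM with no overlap between groups, a log2 fold change of 0.78 ± 0.41 with a p over 0.05. Of 56 Nrf2 and oxidative stress genes 43 were positive, with a median of 0.14, which was 0.06 without library E of 14 µM, and 2 had a p under 0.05 on the higher side (0.594% of all genes). The xenobiotic metabolism list had 58 of 90 positive, a median of 0.07 and 3 at a p under 0.05, which are cyp2k18 and both gstp genes. Its median was 0.30 without A and D, -0.08 without H of 14 µM and -0.15 in the first 32 columns alone. The aryl hydrocarbon receptor list had 6 of 20 positive and 0 at a p under 0.05. The marker of that receptor, cyp1a, had 26.7 ± 14.7 and 28.8 ± 9.10 CPM.

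In lipid metabolism no PPAR target or cholesterol synthesis gene had a p under 0.05, and the share of positive members moved with the libraries used. Of 47 PPAR target genes 24 were positive, with a median of 0.02, against 53.7% of all genes. Without A and D 40 were positive (median 0.13), against 53.0% of all genes, and without H of 14 µM the median was -0.08. The fatty acid oxidation gene cpt1b had a log2 fold change of 0.37 ± 0.26, and angptl4, an inhibitor of lipoprotein lipase, 0.20 ± 0.32. The fatty acid binding protein genes fabp3 and fabp7a had 0.59 ± 0.32 and 0.44 ± 0.27. For fabp3 the ratio of means was 1.5, and 1.15 without library E of 14 µM. The liver fatty acid binding protein gene fabp10a ran from 21.0 to 205 CPM at 14 µM and from 26.2 to 127 in DMSO, so its log2 fold change of 0.24 ± 0.73 lay within the spread of libraries. Of 30 cholesterol synthesis genes 23 were positive; their median was 0.10. Without A and D it was 27 of 30 and 0.24, and without H of 14 µM the median was -0.02.

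Signalling genes of the brain had medians slightly below 0, some of which rested on 1 library. Of 49 GABA and glycine genes 10 were positive (median -0.11), of 83 voltage-gated channel genes 25 (-0.12), of 69 glutamatergic genes 24 (-0.10), of 63 synaptic vesicle genes 20 (-0.06) and of 59 genes of young neurons 18 (-0.08). None of these genes had a p under 0.05. Their list means per library overlapped between groups, as in GABA and glycine transmission with 3.30 to 4.24 at 14 µM and 3.31 to 4.07 in DMSO. Without A and D the medians were -0.02, -0.04, -0.05, -0.02 and -0.14. With 1 library left out, the median of synaptic vesicle genes reached 0.01 without H of DMSO and that of young neurons 0.00 without H of 14 µM. The GABA and glycine median reached -0.02 without E of 14 µM, the glutamatergic one -0.04 without H of 14 µM and the channel one -0.04 without H of DMSO. Immediate early genes respond within minutes to neuronal activity, and 16 of 50 were positive (median -0.12, and -0.01 without F of DMSO). Among these egr3 had 10.32 ± 2.97 and 14.2 ± 3.91 CPM (log2 fold change -0.45 ± 0.26). Of 55 circadian genes 17 were positive (median -0.08, and -0.01 without A of 14 µM).

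Immune cells, skin and ionocytes lay on the higher side with few small p values. Of 49 neutrophil and macrophage genes 42 were positive, at a median of 0.28, which was 0.26 over 52 genes without A and D. The gelatinase gene mmp9 had 13.0 ± 5.42 and 8.97 ± 2.64 CPM (log2 fold change 0.53 ± 0.32), and laptm5, a lysosomal membrane protein gene of blood cells, was the 1 member with a p under 0.05 (0.91 ± 0.39). Epidermal genes had 49 of 54 positive (median 0.19), ionocyte genes 36 of 48 (0.21) and vascular endothelium 39 of 48 (0.15), each with 0 at a p under 0.05. Embryonic alpha globin hbae3 had 85.7 ± 31.3 and 54.7 ± 16.9 CPM (0.65 ± 0.30), in a globin and erythroid list with 25 of 41 positive. In bone the osteoblast gene ifitm5 had 26.9 ± 6.35 and 18.98 ± 1.92 CPM (0.50 ± 0.21), with 5 of 6 exposed libraries above all DMSO libraries, and 40 of 48 bone and teeth genes were positive (median 0.13). These were 31 of 48 and 0.04 without A and D, and without A alone the median was 0.06. Without A and D, hbae3 had a log2 fold change of 0.54 ± 0.33 and ifitm5 0.42 ± 0.23, both with an unadjusted p over 0.05.

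Medians of housekeeping lists were near 0.1 and moved with single libraries. Ribosomal proteins had 63 of 83 positive (median 0.12), oxidative phosphorylation 77 of 96 (0.12) and the proteasome 45 of 50 (0.12). Without E of 14 µM the ribosomal median was -0.03 and the oxidative phosphorylation median 0.02. The proteasome had 33 of 50 and 0.03 without A and D. Cell cycle genes had 64 of 97 and 0.06, and 25 of 97 and -0.09 without A and D. The complex III subunit gene uqcrb (chromosome 19, 44049501 to 44055009) was the 1 oxidative phosphorylation gene with a p under 0.05. It ran from 17.9 through 24.3 to 41.8 CPM at 14 µM and from 13.6 through 16.7 to 20.5 in DMSO, and library I alone of the exposed group lay below the highest DMSO library. Its log2 fold change was 0.63 ± 0.24, with 0.63 ± 0.27 without A and D and 0.45 without E of 14 µM. The mitophagy receptor gene fundc1 had 10.5 ± 4.55 and 5.80 ± 1.44 CPM (0.85 ± 0.33, and 0.58 without E of 14 µM).

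Hormone axes had few members at small p values. At a p under 0.05, 1 of 22 thyroid genes was lower, and of 42 glucocorticoid targets 1 was higher and 1 lower. Among all genes 0.594% were higher and 0.135% lower. The genes dio3b, fkbp5 and nr3c1 described here had a p over 0.05. Of 22 thyroid genes 10 were positive (median -0.09, and -0.02 without H of DMSO), and dio3b, whose deiodinase inactivates thyroid hormone, had 7.89 ± 3.402 and 11.7 ± 1.48 CPM (-0.56 ± 0.32). A, D and E of 14 µM lay below every DMSO library for dio3b, and without A and D the log2 fold change was -0.28. Of 42 glucocorticoid targets 22 were positive (median 0.02). The chaperone gene fkbp5 had 130 ± 34.3 and 97.6 ± 27.3 CPM (0.42 ± 0.36), and the glucocorticoid receptor gene nr3c1 29.5 ± 2.46 and 33.0 ± 1.78 (-0.16 ± 0.14). Library D alone of the exposed group reached the DMSO range of nr3c1.

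**Figure D4:**
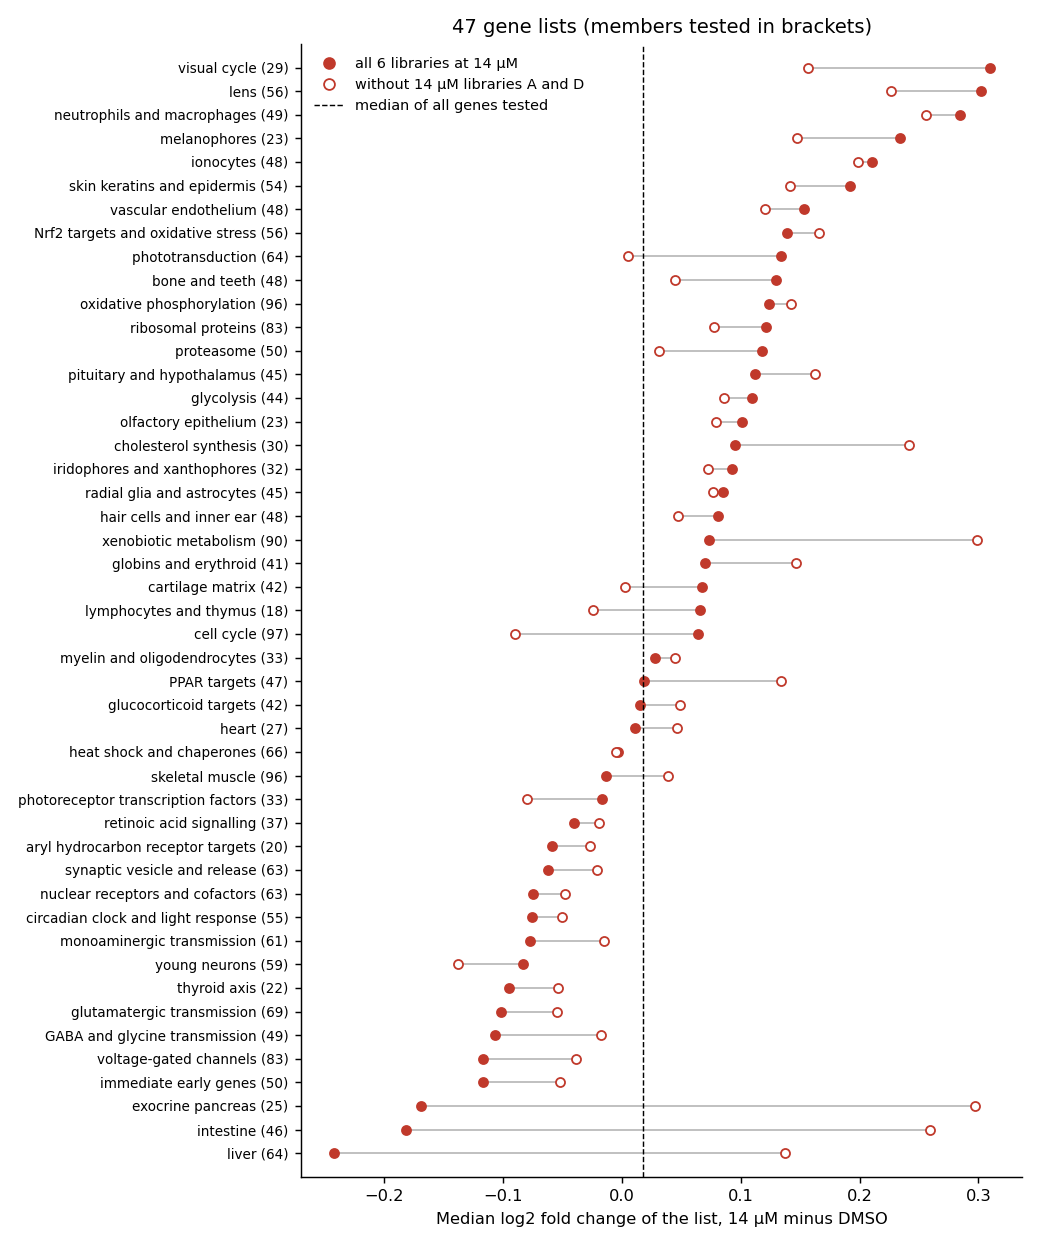
Median log2 fold change (x axis, 14 µM minus DMSO at 5 dpf) of 47 gene lists (y axis, members tested in brackets). Filled points use all 6 exposed libraries and open points leave out A and D; the dashed line is the median of all genes tested, 0.02. Exocrine pancreas, intestine and liver move across 0 without A and D.

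Outside the lists, the smallest p values belonged to genes counted at low depth. The proapoptotic gene bik (chromosome 4, 18843015 to 18846612) had 0.864 to 1.76 CPM at 14 µM and 0.21 to 0.713 in DMSO, with medians of 1.07 and 0.438. No library of one group reached the range of the other. The log2 fold change was 1.4 ± 0.34 (unadjusted p 0.00017 and adjusted p = 1 in edgeR's test), and 1.49 ± 0.38 without A and D. The COMM domain gene commd4 had 0.718 ± 0.300 and 0.222 ± 0.160 CPM, also with no overlap (1.67 ± 0.43). Both were named after their values were seen, since their average log2 CPM is under 1. Among genes above that level the higher side also held ppih, a prolyl isomerase gene of the spliceosome (1.29 ± 0.44), h2afva, a histone H2A variant gene (0.78 ± 0.28), the galectin gene lgals1l1 (1.49 ± 0.54) and the connexin gene cx23 (0.98 ± 0.36). The counts of ppih in DMSO were low too, with a log2 CPM of -2.48 in library H and -0.79 in the next lowest. Library E of 14 µM carried much of h2afva and lgals1l1. With E left out the ratio of means moved from 1.72 to 1.399 for h2afva and from 2.82 to 1.47 for lgals1l1. At higher counts, ptmaa, the gene of prothymosin alpha, ran from 85.5 to 145 CPM at 14 µM and from 43.8 to 84.5 in DMSO without overlap (0.64 ± 0.32).

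On the lower side, tti2 (chromosome 8, 45381298 to 45395316), whose product helps assemble kinases of the PIKK family, had the smallest p. Its CPM was 2.18 at the lowest, 2.48 at the median and 4.25 at the highest at 14 µM, and 3.43, 3.94 and 5.24 in DMSO. All exposed libraries but I lay below every DMSO library. The log2 fold change was -0.61 ± 0.23, and -0.52 ± 0.26 without A and D. The transmembrane protein gene tmem151a (-0.78 ± 0.31), the transcription factor gene ebf1b (-0.45 ± 0.20) and the wolframin gene wfs1a, for a protein of the endoplasmic reticulum (-0.66 ± 0.29), followed. For igfbp1a (chromosome 20, 6808774 to 6812689), an insulin-like growth factor binding protein gene induced by fasting and low oxygen, the CPM ran from 5.43 through 11.2 to 14.9 at 14 µM and from 13.2 through 14.5 to 20.4 in DMSO. Library G alone of the exposed group reached the DMSO range. Its log2 fold change was -0.50 ± 0.24, and -0.33 ± 0.26 without A and D. The protease inhibitor gene serpinb1 (-0.53 ± 0.26) and mier2 (-0.43 ± 0.21) had a p just under 0.05. The remaining 5 of the 12 genes with the smallest p on this side, smcr8a, elf3, lix1l, pcdh1a3 and mgat4b, had p values just over 0.05 and log2 fold changes of -0.82 to -0.35.

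The next question was whether 14 µM differs from the neighbouring concentrations of the same age. Direct contrasts in the same edgeR fit called 0 genes. Against 25.1 µM 148 genes (0.714%) had a p under 0.05, and against 7.87 µM 1245 (6.01%), 911 of them higher at 14 µM and 334 lower. The 6.01% is close to the share of about 0.05 expected if no gene differed. That share is a rough reference only, since the contrasts with DMSO and 25.1 µM in the same fit gave 0.729% and 0.714%. Against 25.1 µM the smallest p values of named genes belonged to bace1, a secretase gene (0.71 ± 0.23), igfbp1a (-0.72 ± 0.24) and mkrn2, a ubiquitin ligase gene (0.60 ± 0.21). Mean igfbp1a was 11 CPM at 14 µM, 18.1 at 25.1 µM, 15.0 at 7.87 µM and 15.5 in DMSO. Of 50 immediate early genes 10 were lower at 14 µM than at 25.1 µM with a p under 0.05 and 0 higher, against 0.299% and 0.415% of all genes. Against 7.87 µM (adjusted p = 0.82 in edgeR's test) the genes were foxe3 (1.02 ± 0.27), jund, a transcription factor gene of the AP-1 family (-0.69 ± 0.20), and the checkpoint gene HUS1 (0.93 ± 0.27). The lens regulator gene foxe3 had 2.5 CPM at 14 µM, 1.23 at 7.87 µM and 1.91 in DMSO. Of 96 oxidative phosphorylation genes 18 were higher at 14 than at 7.87 µM with a p under 0.05 and 1 lower, and of 97 cell cycle genes 13 and 0, against 4.4% and 1.61% of all genes. Such counts were not particular to these lists. Of 44 glycolysis and 83 ribosomal protein genes 9 each were higher and 0 lower. Of 50 proteasome and 66 heat shock and chaperone genes 9 each were higher and 1 each lower, and of 23 melanophore genes 5 and 0. These list counts use all libraries and are not given with libraries left out. Against DMSO, the cell cycle median was -0.09 without A and D of 14 µM, and the oxidative phosphorylation median 0.02 without E of 14 µM. The 7.87 µM group of 5 dpf had a median SD of log2 CPM of 0.41.

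Since the comparisons with DMSO share their 6 DMSO libraries, their values are only set side by side. The genes six7, si:dkey-61n16.5 and cyp2k18 were picked because earlier results on other groups of this series named them. Their values at other concentrations are therefore no independent support. In the order 7.87, 14 and 25.1 µM, six7 had log2 fold changes of 0.33, 0.48 and 0.72. The values were 0.76, 0.75 and 1.34 for si:dkey-61n16.5 and 0.18, 1.73 and 1.99 for cyp2k18. The gene si:dkey-61n16.5 (chromosome 3, 13911950 to 13921174) has no descriptive name in the deposited table. Its CPM ran from 33.8 through 57.8 to 69.7 at 14 µM and from 26.8 through 29.2 to 40.9 in DMSO. A and E lay within the DMSO range, and the other 4 exposed libraries above it. For lim2.1 the values were 0.57, 0.74 and 0.47, for cryba2b 0.56, 0.78 and 0.38, for crygn2 -0.10, 0.77 and 0.40, and for tti2 -0.52, -0.61 and -0.61. The genes lim2.1, cryba2b, crygn2 and tti2 were picked by their values at 14 µM, which favours a larger difference there. Their order over the concentrations is therefore no evidence of a peak at 14 µM. The lens list had medians of 0.05, 0.30 and 0.15, and the visual cycle list -0.06, 0.31 and 0.04. Without A and D the 14 µM medians were 0.23 for the lens list and 0.16 for the visual cycle list. The 14 µM values of lim2.1, cryba2b and crygn2 were then 0.71, 0.63 and 0.46. The direct contrasts of 14 µM with 25.1 µM had 0 lens genes at a p under 0.05, and those with 7.87 µM had 3 higher and 0 lower.

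**Figure D5:**
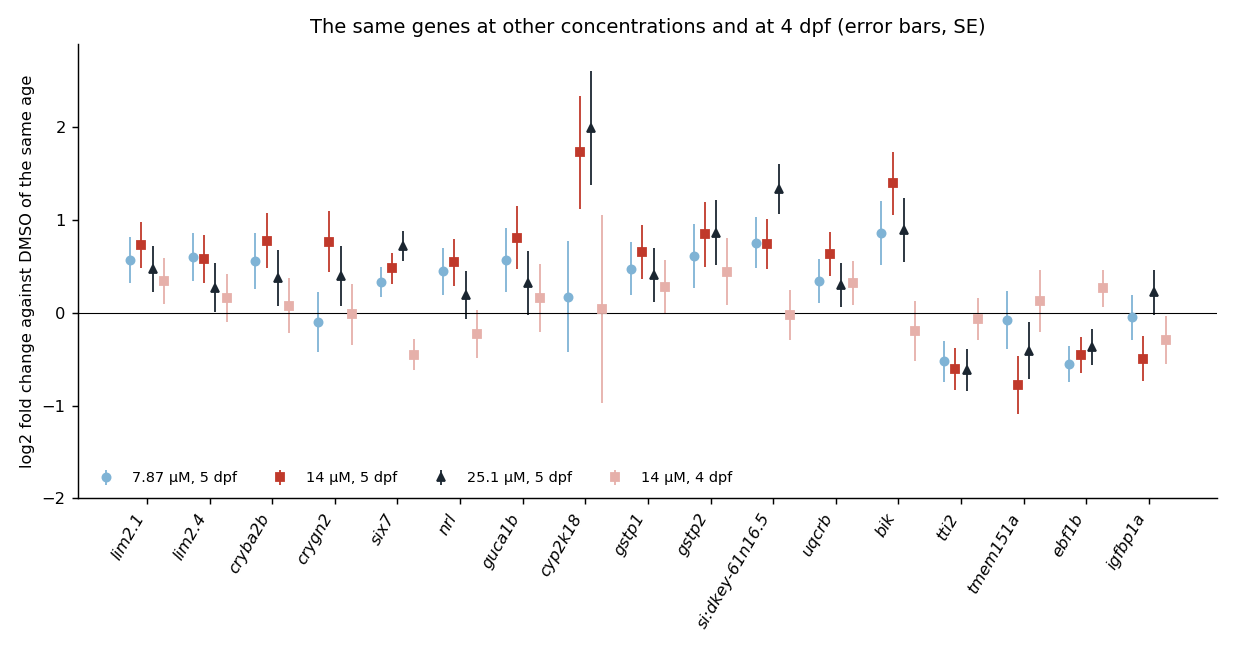
Log2 fold change ± SE (y axis) of 17 genes (x axis) against DMSO of the same age, for 7.87, 14 and 25.1 µM at 5 dpf and 14 µM at 4 dpf. The 3 comparisons at 5 dpf share the DMSO libraries; six7 is positive in all 3 (0.33 to 0.72) and -0.45 at 4 dpf.

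The last question was whether the 14 µM difference depends on age. The interaction called 0 genes in edgeR's test, and 478 (2.31%) had a p under 0.05. Among the genes eligible to be named, six7 had the smallest p. Its log2 fold change at 14 µM was 0.48 ± 0.16 at 5 dpf and -0.45 ± 0.16 at 4 dpf, a difference of 0.93 ± 0.23 (unadjusted p 0.000218 and adjusted p = 1 in edgeR's test). Next came fscn2a, a gene of retinal actin bundling (0.24 at 5 dpf, -0.57 at 4 dpf), and esyt2b, an extended synaptotagmin gene (-0.35 and 0.71). In the photoreceptor transcription factor list 3 of 33 genes had a higher difference at 5 dpf with a p under 0.05 and 0 a lower one, and in the phototransduction list 4 of 64 and 0, against 1.22% of all genes on the higher side. Other lists had such members too: visual cycle 3 of 29, melanophores 2 of 23 and ionocytes 4 of 48, each with 0 lower. The liver list had 11 of 64 on the lower side (1.09% of all genes) and 1 on the higher, with medians of -0.24 at 5 dpf and 1.23 at 4 dpf. These list counts include A and D of 14 µM at 5 dpf and are not given without them. Without A and D the medians against DMSO at 5 dpf were 0.14 for liver, 0.01 for phototransduction and -0.08 for photoreceptor transcription factors. The part of A and D in the age difference of these lists was not tested. At 4 dpf the median SD of log2 CPM was 0.51 at 14 µM and 0.34 in DMSO, so the 4 dpf values also vary between libraries.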

How the data were processed

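The authors deposited a table of expected counts (estimated reads per gene, not normalized; 25445 genes) and a table of log2 quantile-normalized values. The build GRCz11 and the tools STAR (version 2.5.3a) and Partek (version 8.0.19.0428) are named, per the submitters' processing notes; their roles, annotation release and strand handling are not given in the sources used here. Expected counts were rounded. Of 25445 genes, filterByExpr kept 20723, and all 48 libraries were fitted as 8 group means with edgeR 4.0.16 (TMM scaling, quasi-likelihood F test, Benjamini-Hochberg over all genes, threshold 0.05) in R 4.3.3. CPM is TMM-scaled and log2 CPM has a prior count of 2. The biological coefficient of variation was 0.361. Alternatives were DESeq2 1.42.0, limma 3.58.1 on the authors' log2 values (pseudocount 1), other scaling, filters, samples and blocks, and each library left out. The script was tested on simulated data. The members and the 47 lists were chosen with earlier results of these data known, and lists have no test.

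Genes were picked by rule if they carry a descriptive symbol and their average log2 CPM reaches 1: the 12 smallest p in each direction, 2 per list, 3 per other contrast and those called by an alternative. Not all genes picked in this way are described above. The genes six7, si:dkey-61n16.5, cyp2k18, fabp10a, cpt1b, angptl4, fkbp5 and cyp1a were named whatever their values. Earlier results on other groups of this series had named them. Other genes, such as lim2.3 to lim2.5, crygn2, crygm5, cryba2a, bik, commd4, ptmaa, laptm5, gclm, mipa and the opsins, were named after their values were seen.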

Additional observations from a re-analysis of the deposited data

Results flagged for a closer look

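In 268 groups of 6 values (87 genes and 47 lists in each group), 15 had a lowest or highest library far from the other 5 for the group's range; chance flags about 1 in 20 groups. All values here are log2 CPM. In library E of 14 µM fabp3 was high at 6.28 (next 4.99), ptmaa high at 7.18 and fscn2a low at 3.57. Library G of 14 µM was high for egr3 (4.03), mier2 (1.74) and the mean of the voltage-gated channel list (2.81, next 2.32). Library I of 14 µM was low for elf3 (3.13) and high for tti2 (2.12, next 1.44). Library A of 14 µM was low for igfbp1a (2.46, next 3.46), and H of 14 µM for the mean of the young neuron list (4.78). In DMSO, H was low for ppih (-2.48, next -0.79) and high for serpinb1 (4.81), E was high for nr3c1 (5.19) and for the aryl hydrocarbon receptor list (2.68), and I was high for rpl22 (5.04).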

How the results depend on the processing

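No gene was called for 14 µM against DMSO under any of 24 alternatives but the letter as a replicate block on the 8 libraries whose letters occur in both groups, which called 1 gene, cyp2k18 (log2 fold change 2.09 ± 0.26, adjusted p 0.0188). Letters E, G, H and I deviated together by correlations of 0.01, 0.14, -0.17 and 0.12, and no library correlated best with its own letter, so letters were not taken as pairs. Against 151 genes at an unadjusted p under 0.05, that block gave 409 and the block on all libraries 266; the 12 libraries alone gave 488, the 24 of 5 dpf 366, no filter on low counts 505, DESeq2 246, the column block as a term 257 and the first 32 columns alone 249. Leaving out 1 library gave 116 (DMSO H) to 292 (14 µM G). The causes of these moves were not tested. Of 2087 log2 fold changes of 87 genes, 2076 kept their sign. Many of these genes were picked by their p or values in the same libraries, so kept signs are no independent support. Some of the 87 genes, such as bdh2 and hddc2, are not described here, and some described genes, such as laptm5 and mipa, are not among them. The 11 reversals were in 4 genes: cyp1a (main -0.11; 0.30 in the 8-library block, 0.24 without A and D, and -0.38 to 0.066 with 1 library left out, including 0.01 without A, 0.066 without D and 0.04 without DMSO G), fabp10a (main 0.24; -0.11 with the block on all libraries, and -0.23 to 0.46 with 1 library left out), jund (main -0.15; 0.021 in the 8-library block) and rho (main 0.12; -0.034 with limma, -0.11 in the 8-library block and -0.058 without A and D). Of 1128 list medians, 101 had another sign than with all libraries; 26 of 47 lists kept their sign under all 24 alternatives, and 18 changed sign with 1 library left out. Exocrine pancreas ran from -2.44 (limma) to 0.30 (without A and D), intestine from -0.82 (first 32 columns) to 0.26 and liver from -0.53 to 0.14. Leaving out A and D and the first 32 columns alone were chosen after seeing the data. Counts per library limit genes under about 1 CPM, such as bik, commd4 and, in DMSO, ppih.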

Other observations

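Among lists not described above, olfactory epithelium had 16 of 23 genes positive (median 0.10), and 2 had an unadjusted p under 0.05 on the higher side (0.594% of all genes). Without A and D of 14 µM there were 0 such genes, with 15 of 24 positive and a median of 0.08. The calcium-binding protein gene s100z had means of 1.77 and 0.901 CPM (14 µM, then DMSO), and 5 of 6 exposed libraries exceeded the DMSO range. The G protein gamma subunit gene gng8 had 0.496 and 0.248 CPM. In the glycolysis list, where 31 of 44 were positive (median 0.11), the fructose bisphosphatase gene fbp2 had 2.23 and 0.901 CPM, and 1 exposed library lay above all DMSO libraries. Skeletal muscle (46 of 96 positive, median -0.01) and cartilage matrix (32 of 42, 0.07, and 0.00 without A and D) had 0 genes at an unadjusted p under 0.05 in edgeR's test.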
